A study of Mus musculus with 12 samples.

Results

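The muscle acetylcholine receptor and the proteins that gather it under the nerve ending were followed through differentiation and Bach1 silencing by 10 genes: the receptor subunit genes Chrna1, Chrnb1, Chrnd, Chrne and Chrng, and the clustering genes Agrn, Lrp4, Musk, Dok7 and Rapsn. They were chosen by gene symbol and not by a rule on measured values, although earlier results of these data were known. They were 10 of the 27306 symbols in the deposited table, with 19 probes between them. The RNA came from C2C12, an established line of myoblasts from C3H mouse muscle. All cells were transfected with an siRNA, either the control siControl or siBach1, which is directed against Bach1 and is named siBach1-2 in the study's methods. RNA was taken at day 0, before differentiation was induced, or at day 2 after confluent cells had been moved to 2% horse serum, with 3 replicate arrays for each of siControl day 0, siBach1 day 0, siControl day 2 and siBach1 day 2. A single siRNA sequence against Bach1 and a single cell line stood behind every value, and the methods describe no nerve cells in the cultures. Nothing in the labels says that replicates came from separate cultures, so the p-values measure the spread between these arrays.

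The muscle acetylcholine receptor is a channel of 5 subunits that opens when the motor nerve releases acetylcholine. The embryonic receptor carries the gamma subunit (Chrng), which the epsilon subunit (Chrne) replaces at the mature synapse, while the alpha (Chrna1), beta (Chrnb1) and delta (Chrnd) subunits are shared. Agrin (Agrn) from the nerve binds Lrp4, which activates the receptor kinase MuSK. Dok7 is the adaptor that binds MuSK inside the cell and keeps it active, and rapsyn (Rapsn) holds the receptors together in clusters. Myotubes in culture make most of these proteins without a nerve, because myogenic factors such as MyoD and myogenin act on E-boxes, sequences of the form CANNTG, in the subunit genes. Bach1 is a haem-binding repressor that pairs with small Maf proteins on elements whose core is TGANTCA, and Hmox1 is its best known target.

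The promoters of 4 members are shown, those that held at least 1 E-box of the form CAGCTG. The higher signal at day 2 than at day 0 in siControl cells does not set them apart, because it was seen for all 10 genes. Sequences are those of RefSeq on GRCm38.p6 and cover the 250 bases before the annotated start, from 5′ to 3′ of the gene's strand. Capitals mark the E-box CANNTG, the N-box (an Ets factor site known from the epsilon gene, written CCGGAA) and the Maf core TGANTCA, each searched on both strands.
Chrng, chr1:87205561-87205810, plus strand: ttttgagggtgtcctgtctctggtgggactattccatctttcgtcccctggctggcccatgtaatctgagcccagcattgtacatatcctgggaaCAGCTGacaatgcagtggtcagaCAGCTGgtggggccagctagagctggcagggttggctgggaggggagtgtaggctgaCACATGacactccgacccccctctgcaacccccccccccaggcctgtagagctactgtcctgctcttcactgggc
Chrna1, chr2:73580339-73580588, minus strand: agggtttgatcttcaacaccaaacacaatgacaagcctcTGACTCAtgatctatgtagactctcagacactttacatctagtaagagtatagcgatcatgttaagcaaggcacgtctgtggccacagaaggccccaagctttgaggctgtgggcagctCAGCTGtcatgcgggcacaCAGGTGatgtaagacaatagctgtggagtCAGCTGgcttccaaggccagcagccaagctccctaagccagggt
Musk, chr4:58285712-58285961, plus strand: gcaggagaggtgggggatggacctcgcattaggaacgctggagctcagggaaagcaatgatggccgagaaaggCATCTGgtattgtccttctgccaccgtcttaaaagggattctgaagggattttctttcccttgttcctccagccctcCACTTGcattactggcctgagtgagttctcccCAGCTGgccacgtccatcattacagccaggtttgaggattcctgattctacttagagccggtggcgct
Chrne, chr11:70619195-70619444, minus strand: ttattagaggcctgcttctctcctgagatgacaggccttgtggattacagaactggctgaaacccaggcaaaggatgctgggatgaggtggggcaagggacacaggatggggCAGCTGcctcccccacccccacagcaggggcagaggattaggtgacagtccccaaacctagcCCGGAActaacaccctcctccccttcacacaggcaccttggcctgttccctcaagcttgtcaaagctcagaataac
The Chrng, Chrna1 and Musk windows each held 3 E-boxes, a number reached by 12.2% of all 32851 promoter windows of this length. Of these E-boxes, 2 in Chrng and 2 in Chrna1 had the form CAGCTG, which is a subset of CANNTG, and 1.26% of all windows hold at least 2. Chrne held 1 E-box, of the form CAGCTG, and 1 N-box, a motif present in 12% of windows. A single TGANTCA stood in the Chrna1 window, against 6.75% of all windows with at least 1. Of the other members with a promoter sequence, Chrnb1 held 3 E-boxes and no CAGCTG, and each of the annotated starts of Dok7 and Agrn held 0 or 1. Chrnd, Rapsn and Lrp4 had no promoter sequence in the reference used. Chrnd and Chrng are neighbours on chromosome 1. A motif match is a description of the letters and no evidence of binding.

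Levels are given as the log2 of the scanner's processed signal minus the array's 75th percentile, so a value of 0 is the array's 75th percentile spot. The scanner's rule put 47.6% to 58.9% of an array's probes well above background, no spot was saturated, and the 75th percentile signal lay between 325.5 and 534.4. Each condition kept its own column of positions on both slides, so position and condition cannot be told apart. Of the 19 member probes, 17 met that rule on all 12 arrays and were tested. The second Chrne probe (A_55_P2741190) was well above background on no array, and a second Agrn probe (A_55_P2009127) only on replicate 1 arrays, so neither was tested. The targeted gene Bach1 was lower in siBach1 cells by a log2 difference of -1.77 at day 0 and -1.97 at day 2, and Hmox1 was higher by 3.30 and 3.12 (limma, adjusted p at most 1.4e-05 for each). A probe passed where the limma p-value, adjusted over all 29664 tested probes by Benjamini-Hochberg, was under 0.05.

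The first comparison asks how the members change as control myoblasts differentiate. In siControl cells, 16 of the 17 probes, with at least 1 for each of the 10 genes, were higher at day 2 than at day 0 and none was lower, where 24.6% of all tested probes were higher and 28.7% lower. The rise reached 2-fold on 11 of the 17, against 10.5% of all tested probes. The 3 day 2 arrays lay entirely above the 3 day 0 arrays on all 17 probes, against 29.1% of all tested probes. The median log2 change of the members was 1.15 and that of all tested probes 0.00. The 6 marker genes of differentiated muscle (Myh3, Acta1, Ckm, Tnnt3, Ttn and Mylpf) rose by 3.66 to 6.75 in the same cells. In these bulk cultures a larger share of differentiated cells and more RNA per cell cannot be told apart.

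Among the receptor subunits, the embryonic gamma subunit changed most. Chrng, read by A_51_P288009, gave 3.34, 2.84 and 2.91 in siControl cells at day 0 and 7.45, 7.49 and 7.36 at day 2. This rise of 4.41 (SE 0.14, limma adjusted p = 1.5e-08) is a 21.2-fold difference, and the second Chrng probe (A_55_P2745297) gave 4.58 (SE 0.16). The delta subunit Chrnd read 4.66 on each of the 3 day 0 arrays and 6.65, 6.71 and 6.69 at day 2, a rise of 2.03 (SE 0.08, limma adjusted p = 4.5e-08) and a 4.08-fold difference. The groups stood far apart for both genes, with little spread inside each.
The other subunits rose by about a single log2 unit. Chrna1 went from 6.67, 6.66 and 6.62 to 7.80, 7.90 and 7.69, a difference of 1.15 (SE 0.08, limma adjusted p = 9.6e-07). Chrnb1 went from 0.90, 0.92 and 0.85 to 1.97, 2.07 and 2.01, a difference of 1.13 (SE 0.11). The epsilon subunit Chrne, at -1.85, -2.12 and -2.17 at day 0 and -0.77, -0.96 and -1.28 at day 2, rose by 1.04 (SE 0.19, limma adjusted p = 0.001). Chrne was the dimmest and noisiest of the main subunit probes, though its groups did not overlap.

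Of the clustering genes, Lrp4, the muscle receptor for agrin, rose most. Its main probe (A_52_P635078) gave 1.05, 0.75 and 0.93 at day 0 and 3.54, 3.27 and 3.32 at day 2 in siControl cells, a rise of 2.47 (SE 0.15, limma adjusted p = 4.8e-07). Dok7 (A_51_P155458) gave 3.28, 3.38 and 3.45 and then 4.76, 4.41 and 4.72, a rise of 1.26 (SE 0.11, limma adjusted p = 5.2e-06). Both genes showed no overlap between days.
Rapsn rose by 0.98 (SE 0.12), Musk by 0.94 on A_55_P2130600 and 1.59 on A_55_P2496660, and Agrn by 0.43 (SE 0.08), the smallest rise of a main probe. The single probe that did not pass was the Lrp4 probe A_55_P2680519, at 0.26 (limma adjusted p = 0.27). It is designed on NM_001145857, as is the Lrp4 probe A_55_P2503635, which rose by 0.99.
Fibroblast markers rose over the same 2 days, on 5 of 5 genes in siControl cells (median 2.57) and in siBach1 cells (median 2.94). Their summed signal, in units of the 75th percentile, was 135 to 139 at day 0 and 242 to 283 at day 2 in siControl cells, and 155 to 182 and then 282 to 288 in siBach1 cells. In siControl cells the collagen genes Col1a1 and Col1a2 rose by 2.57 and 0.68 and Pdgfra, a growth factor receptor, by 0.38. Dpt and Lum, which encode matrix proteins, rose by 4.51 and 3.74, and only 3 of the 5 genes were well above background on each day 0 array. The part of these genes in the rise of the members was not tested.

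**Figure D1:**
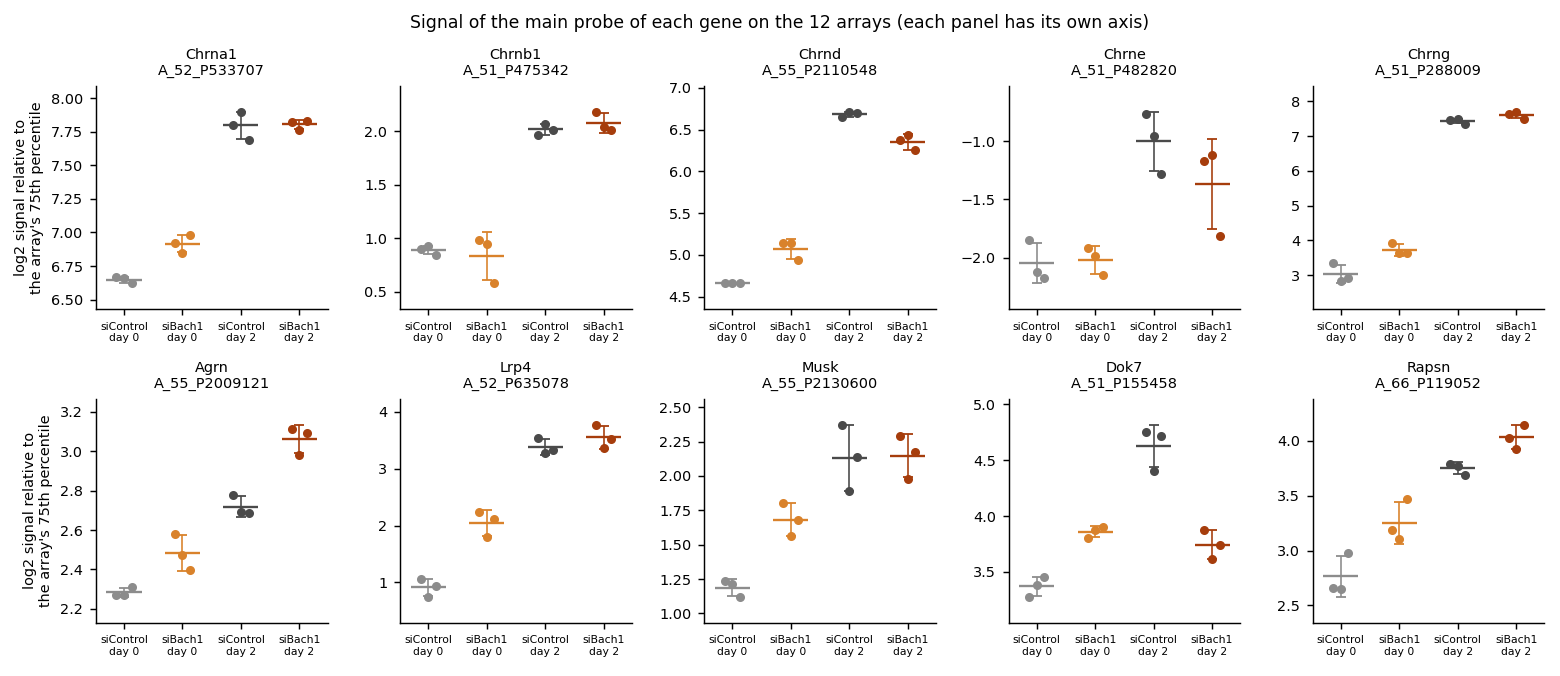
Log2 signal with each array's 75th percentile at 0 (vertical axis, a separate scale in each panel) of the main probe of each of the 10 genes on the 12 arrays, grouped by siRNA and day on the horizontal axis. Points are arrays, horizontal bars are means and error bars the SD of 3 arrays. Chrng rises by 4.41 from day 0 to day 2 in siControl cells, and Dok7 ends lower in siBach1 than in siControl cells at day 2.

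The second comparison asks what Bach1 silencing did before differentiation was induced. At day 0, 11 of the 17 probes were higher in siBach1 than in siControl cells and none was lower, which covered 7 of the 10 genes: Chrna1, Chrnd, Chrng, Lrp4, Musk, Dok7 and Rapsn. Over all tested probes 8.8% were higher and 8.32% lower. The siBach1 arrays lay entirely above the siControl arrays on 14 of the 17 probes, against 21.9% of all tested probes, and the median log2 difference of the members was 0.49 against 0.09 for all tested probes. Most differences were small, and 1 of the 17, that of Lrp4, reached 2-fold, as did 0.809% of all tested probes in that direction. Within each slide alone, 16 of the 17 probes differed in the same direction on both slides, where slide 2 held only replicate 3. The share of all tested probes that did so was not computed.

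Lrp4 differed most at day 0. On A_52_P635078 the siControl arrays gave 1.05, 0.75 and 0.93 and the siBach1 arrays 2.23, 1.79 and 2.11, a difference of 1.13 (SE 0.15, limma adjusted p = 0.00062) and 2.2-fold. The gap between the groups was wider than the range within either. The second probe on the same transcript, A_66_P139374, gave 0.89 (SE 0.20, limma adjusted p = 0.013), while the probes on NM_001145857 gave 0.34 (limma adjusted p = 0.051, or 0.027 with replicate as a block) and 0.22 (limma adjusted p = 0.47).
The embryonic gamma subunit came next. Chrng gave 3.34, 2.84 and 2.91 in siControl and 3.93, 3.63 and 3.62 in siBach1 cells on A_51_P288009, a difference of 0.70 (SE 0.14, limma adjusted p = 0.0065), and its other probe gave 0.75 (SE 0.16, limma adjusted p = 0.011). Every siBach1 array lay above every siControl array on both probes. This shift at day 0 was far smaller than the rise of 4.41 that differentiation brought in siControl cells.

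Chrnd read 4.66 on all siControl arrays and 5.14, 5.14 and 4.94 in siBach1 cells at day 0, a difference of 0.41 (SE 0.08, limma adjusted p = 0.0069). Dok7 gave 3.28, 3.38 and 3.45 against 3.80, 3.88 and 3.90, a difference of 0.49 (SE 0.11, limma adjusted p = 0.012), and a second Dok7 probe (A_51_P322941) gave 0.62 (limma adjusted p = 0.016). Neither gene overlapped between the groups.
For the kinase, Musk A_55_P2496660 rose from -1.52, -1.42 and -1.42 to -0.89, -0.90 and -0.75, a difference of 0.61 (SE 0.09, limma adjusted p = 0.0011), and A_55_P2130600 gave 0.49 (SE 0.13, limma adjusted p = 0.026). Rapsn, with 2.66, 2.65 and 2.98 against 3.19, 3.10 and 3.47, differed by 0.49 (SE 0.12, limma adjusted p = 0.022). The highest siControl and the lowest siBach1 array of Rapsn were the closest of these pairs.
Chrna1 was higher by 0.27 (SE 0.08, limma adjusted p = 0.037), but with quantile normalization the difference was 0.13 and no longer passed (adjusted p = 0.32), and it failed in 9 of the 12 fits that each left out 1 array, at adjusted p of 0.051 to 0.11. Of the other genes' main probes that passed, Musk failed in 5 of these 12 fits, Rapsn in 3 and Dok7 in 1.

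The beta and epsilon subunits and agrin did not pass at day 0. Chrnb1 gave 0.90, 0.92 and 0.85 in siControl and 0.99, 0.94 and 0.58 in siBach1 cells, a difference of -0.05 with a 95% interval from -0.30 to 0.19. Chrne differed by 0.03, with an interval from -0.40 to 0.46 that leaves room for changes as large as that of Chrnd. Agrn was 0.20 higher, with no overlap between the groups (limma adjusted p = 0.11). The groups overlapped for Chrnb1 and Chrne.

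**Figure D2:**
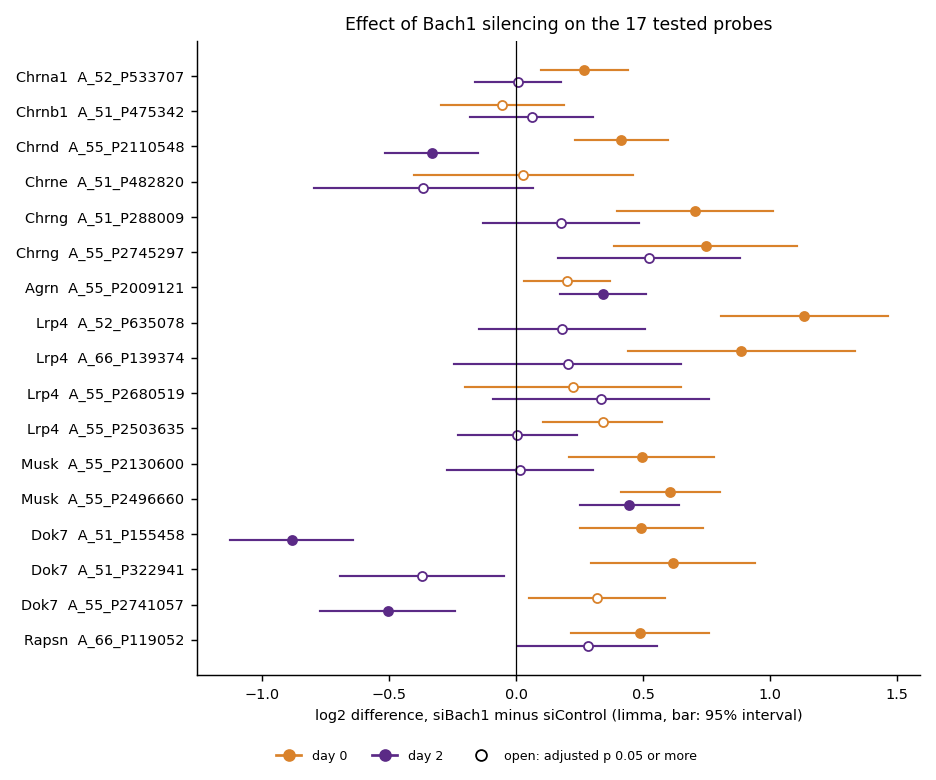
Log2 difference between siBach1 and siControl cells (horizontal axis) for each of the 17 tested probes (vertical axis), at day 0 in orange and at day 2 in purple, with bars for the 95% interval from limma and filled points for an adjusted p under 0.05. At day 0 the 11 filled points all lie above 0, up to 1.13 for Lrp4, and at day 2 the 5 filled points lie on both sides of 0.

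At day 2 the same comparison gave a mixed result. Of the 17 probes, 2 were higher in siBach1 cells (Agrn and Musk A_55_P2496660) and 3 were lower (the Dok7 probes A_51_P155458 and A_55_P2741057, and Chrnd), where 5.75% of all tested probes were higher and 6.26% lower. The siBach1 arrays lay entirely above on 5 probes and entirely below on 3, against 15.7% and 17.1% of all tested probes. The median log2 difference of the members was 0.06 and that of all tested probes -0.01, and no member probe that passed reached 2-fold, where 1.52% of all tested probes did so upward and 0.651% downward.

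Dok7, the adaptor of MuSK, differed most. The siControl arrays gave 4.76, 4.41 and 4.72 on A_51_P155458 and the siBach1 arrays 3.87, 3.62 and 3.74, a log2 difference of -0.88 (SE 0.11, limma adjusted p = 0.0011) or 1.84-fold lower. The lowest siControl array stood well clear of the highest siBach1 array. On A_55_P2741057 the difference was -0.51 (SE 0.12, limma adjusted p = 0.023). It no longer passed in 4 of the 12 fits with an array left out, those without siControl day 2 replicate 1 or 3 or siBach1 day 2 replicate 2 or 3 (adjusted p = 0.063 to 0.082), without the filter on dim probes (adjusted p = 0.1) or on the day 2 arrays alone (adjusted p = 0.067). On A_51_P322941 it was -0.37 with overlapping groups (limma adjusted p = 0.13). Of the Dok7 probes, A_51_P322941 alone is designed on a transcript found in the reference used.
Chrnd gave 6.65, 6.71 and 6.69 in siControl and 6.38, 6.43 and 6.25 in siBach1 cells, a difference of -0.33 (SE 0.08, limma adjusted p = 0.027). The groups did not overlap, but the value was -0.18 with quantile normalization (adjusted p = 0.26), and it no longer passed after normexp background correction (adjusted p = 0.061) or in 5 of the 12 fits with an array left out.
Agrin was the only gene whose main probe passed as higher at day 2. Agrn gave 2.78, 2.69 and 2.69 in siControl and 3.11, 2.98 and 3.09 in siBach1 cells, a difference of 0.34 (SE 0.08, limma adjusted p = 0.017). The groups did not overlap, but Agrn no longer passed without siBach1 day 2 replicate 1 (adjusted p = 0.07), without siBach1 day 2 replicate 3 or siControl day 2 replicate 3 (adjusted p = 0.055 for each), without the filter on dim probes (adjusted p = 0.12) or on the day 2 arrays alone (adjusted p = 0.071). The Musk probe A_55_P2496660 gave 0.18, 0.19 and 0.02 against 0.64, 0.64 and 0.46, a difference of 0.45 (SE 0.09, limma adjusted p = 0.01, or 0.067 without the filter on dim probes and 0.055 on the day 2 arrays alone), whereas A_55_P2130600 differed by 0.01 with a 95% interval from -0.27 to 0.30. The Musk probes are designed on NM_001165996 and NM_001037127 respectively, and only the former separated the groups.

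The shared alpha and beta subunits were close between the siRNAs at day 2. Chrna1 read 7.80, 7.90 and 7.69 in siControl and 7.82, 7.76 and 7.83 in siBach1 cells, a difference of 0.01 with a 95% interval from -0.16 to 0.18. Chrnb1 differed by 0.06, with an interval from -0.18 to 0.30. Chrne gave -0.77, -0.96 and -1.28 against -1.17, -1.12 and -1.81, a difference of -0.36 (limma adjusted p = 0.26) in which the groups overlapped.
Chrng gave 7.45, 7.49 and 7.36 against 7.62, 7.70 and 7.51 on A_51_P288009, a difference of 0.18 (limma adjusted p = 0.46). Its probe A_55_P2745297, at 2.62, 2.91 and 2.77 against 3.23, 3.33 and 3.30, gave 0.52 (SE 0.16, limma adjusted p = 0.062) and passed under 5 of the alternatives, among them quantile normalization (adjusted p = 0.03). All siBach1 arrays were above all siControl arrays on both probes. Lrp4 (A_52_P635078) differed by 0.18, with a 95% interval from -0.15 to 0.51, and Rapsn by 0.28 (limma adjusted p = 0.17).

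In siBach1 cells the members also rose between the days, on 14 of 17 probes covering all 10 genes, with none lower, where 23.8% of all tested probes were higher and 32.3% lower. The day 2 arrays lay entirely above the day 0 arrays on 14 probes, against 25.9% of all tested probes, and 7 rises reached 2-fold, against 10.9%. The median change was 0.78, against -0.07 for all tested probes. Chrng rose by 3.88 (SE 0.14), Lrp4 by 1.51, Chrnd by 1.28, Chrnb1 by 1.24 and Chrna1 by 0.89. The exceptions were the Lrp4 probe A_55_P2680519 and the Dok7 probes A_51_P155458 and A_55_P2741057.
Dok7 stood at 3.80, 3.88 and 3.90 at day 0 and at 3.87, 3.62 and 3.74 at day 2 in siBach1 cells on A_51_P155458, a change of -0.12 with a 95% interval from -0.36 to 0.13, which quantile normalization turned to 0.12. The days overlapped in these cells, whereas they stood 1.26 apart in siControl cells. The third Dok7 probe, A_51_P322941, rose by 0.51 (limma adjusted p = 0.012) in siBach1 and by 1.50 in siControl cells. It is the only Dok7 probe designed on a transcript found in the reference used.

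**Figure D3:**
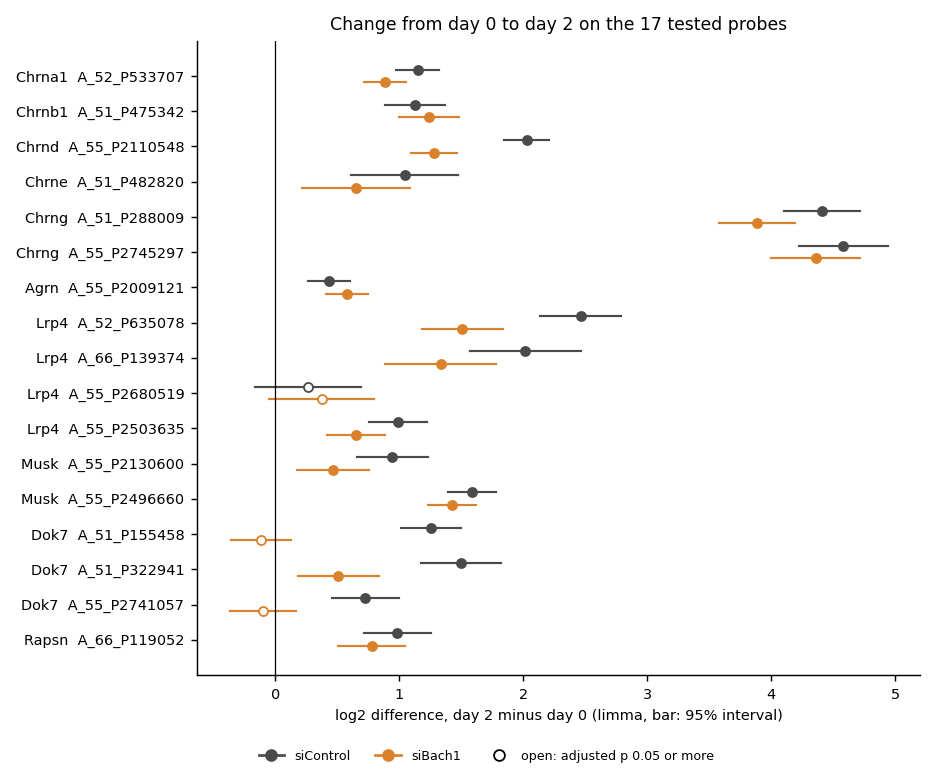
Log2 change from day 0 to day 2 (horizontal axis) of the 17 tested probes (vertical axis) in siControl cells (grey) and siBach1 cells (orange), with bars for the 95% interval from limma and filled points for an adjusted p under 0.05. The siBach1 points of Dok7 A_51_P155458 (-0.12) and A_55_P2741057 (-0.10) lie at about 0, and the Chrng points lie farthest to the right.

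Whether silencing had a different effect at the 2 days was tested directly as the difference between the day 2 and day 0 effects. It passed on 5 of the 17 probes, always with a lower effect at day 2, where 2.2% of all tested probes passed in that direction and 2.39% in the other. It reached 2-fold on 1 member probe, of Dok7, and downward on 0.458% of all tested probes. The median of the members was -0.39, and that of all tested probes -0.07. All 3 Dok7 probes were among them, at -1.38 (SE 0.15, limma adjusted p = 0.0046) for A_51_P155458, -0.99 (SE 0.21, limma adjusted p = 0.027) for A_51_P322941 and -0.82 (SE 0.17, limma adjusted p = 0.026) for A_55_P2741057. Dok7 was thus higher with siBach1 at day 0 and lower at day 2, although on A_55_P2741057 the day 0 difference of 0.32 did not pass (limma adjusted p = 0.1) and on A_51_P322941 the day 2 difference did not.
Chrnd followed the same course, with 0.41 at day 0, -0.33 at day 2 and a difference of -0.75 (SE 0.12, limma adjusted p = 0.011). Lrp4 gave -0.96 on A_52_P635078 (SE 0.21, limma adjusted p = 0.032), from 1.13 at day 0 to 0.18 at day 2. With quantile normalization neither passed (adjusted p = 0.055 for Chrnd and 0.058 for Lrp4). Lrp4 and the Dok7 probes A_51_P322941 and A_55_P2741057 each failed in 9 of the 12 fits with an array left out, at adjusted p of up to 0.079, 0.07 and 0.063, whereas Chrnd and Dok7 A_51_P155458 passed in all of them. With replicate as a block, Lrp4 A_66_P139374 (-0.68) and Musk A_55_P2130600 (-0.48) passed too (adjusted p = 0.045 and 0.041), against 0.19 and 0.16 without it.
For Chrng the difference was -0.53 and for Chrna1 -0.26, and neither passed (limma adjusted p = 0.15 and 0.19). Agrn and Chrnb1, at 0.15 and 0.11, were the only main probes with a positive difference, and neither passed (limma adjusted p = 0.49 and 0.75).

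**Figure D4:**
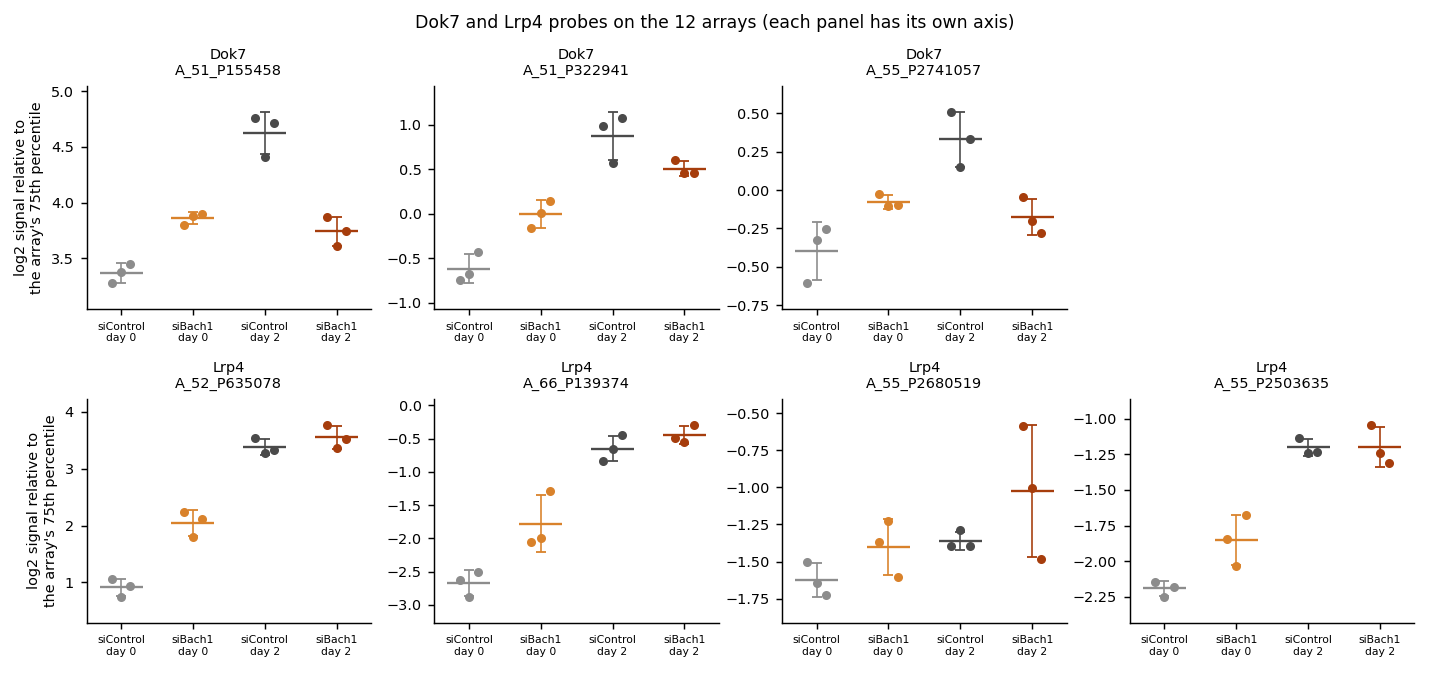
Log2 signal with each array's 75th percentile at 0 (vertical axis, a separate scale in each panel) of the 3 Dok7 and 4 tested Lrp4 probes by siRNA and day (horizontal axis). Points are arrays, horizontal bars are means and error bars the SD of 3 arrays. In all Dok7 panels the siBach1 mean lies above the siControl mean at day 0 and below it at day 2.

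Other genes of the neuromuscular synapse were read from lists with 1 probe per gene. For comparison, 8.8% of all tested probes were higher and 8.32% lower with siBach1 at day 0, and 5.75% and 6.26% at day 2. Between the days in siControl cells, 24.6% were higher and 28.7% lower. In the list of acetylcholinesterase, its collagen tail and the synaptic matrix, 15 of 17 genes were tested. With siBach1, 2 of these were higher and 2 lower at day 0. Lama2, the alpha2 chain of muscle laminin, was 0.88 higher and Dtna, a dystrobrevin, 0.40 higher, while Dag1, which encodes dystroglycan, gave a log2 difference of -1.33. Lama4, the fourth gene to pass, was not well above background on any siBach1 array at day 0. At day 2, 4 genes of the list were higher and 1 was lower. Nid2 (nidogen) was higher by 0.90, Sntb1 (a syntrophin) by 0.82 and Colq, the collagen tail that anchors the esterase, by 0.80, and Dag1 again differed by -0.79. The list rose through differentiation on 11 genes in siControl cells, led by Colq at 4.03.

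Of 23 partners and effectors of MuSK, 1 was higher and 1 lower with siBach1 at day 0, and 1 was higher and 2 lower at day 2. The shares of all tested probes were 8.8% and 8.32% at day 0, and 5.75% and 6.26% at day 2. Crk, an adaptor that binds phosphorylated Dok7, was higher at both days, by 0.61 and 0.39. Dnaja3 differed by -0.39 at day 0, and Csnk2b, a subunit of casein kinase 2, by -0.41 at day 2. The median of this list was 0.09 at day 0, the same as that of all tested probes.
Of 7 genes of neuregulin signalling and Ets factors, Gabpb1, a subunit of the N-box binding factor GABP, differed by -0.30 at day 0, and Erbb3, a neuregulin receptor, by -0.57 at day 2. Erbb3 rose by 4.29 in siControl cells over the 2 days.
In the list of genes known to answer to denervation or electrical activity, 11 of 12 were tested. All 11 rose in siControl cells, where 24.6% of all tested probes were higher. Sik1 (0.90) and Ncam1 (0.30) were higher and Hdac4 (-0.44) was lower with siBach1 at day 0. At day 2, 1 gene of this list was lower with siBach1 and 0 were higher. The difference between days passed on 2 genes, each with a lower effect at day 2, and Sik1 (-0.91) was among them.

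**Figure D5:**
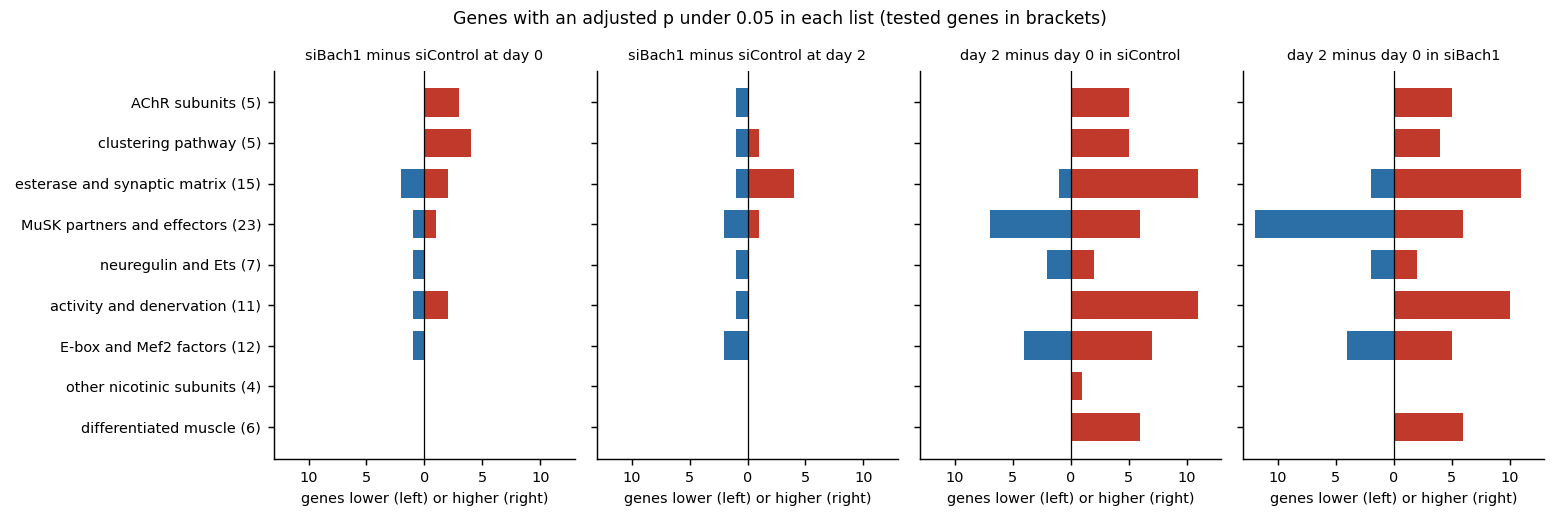
Number of genes with an adjusted p under 0.05 (horizontal axis, higher to the right in red and lower to the left in blue) in each list (vertical axis, tested genes in brackets), 1 probe per gene, for both silencing comparisons and both comparisons of days. The receptor subunits and clustering genes have 3 and 4 genes higher at day 0 and none lower, and the differentiated muscle list has none in either silencing comparison.

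Of the factors that act on E-boxes and Mef2 sites, none of the 12 tested was higher with siBach1 at day 0 by limma (2 at an unadjusted p under 0.05) and Mef2c was lower, at -0.69. Myod1 and Myog, which encode MyoD and myogenin, differed by 0.13 and 0.11 and did not pass. At day 2, Myog was lower with siBach1, at a log2 difference of -0.98 (SE 0.21, limma adjusted p = 0.016). Myod1 was lower too, at -0.48 (SE 0.13, limma adjusted p = 0.036).
None of the 6 markers of differentiated muscle passed in either silencing comparison by limma (0 at day 0 and 2 lower at day 2 at an unadjusted p under 0.05), with differences of -0.40 to 0.05 at day 0 and -0.57 to -0.14 at day 2. Their summed signal, in units of the 75th percentile, was 43.3 to 66.3 in siControl and 39.0 to 57.5 in siBach1 cells at day 0, and 1450 to 1570 against 1002 to 1214 at day 2. Of 6 tested myoblast markers, Cdh15 (0.45) and Itga7 (0.32) were higher at day 0, and Itga7 (-0.34) and Myod1 were lower at day 2. The part of these genes in the differences of the members was not tested.
The other nicotinic subunits, which form receptors outside muscle, were mostly dim. Of 11 genes 4 were tested, and by limma none passed in either silencing comparison, although at an unadjusted p under 0.05 there were 0 at day 0 and 1 in each direction at day 2. Chrna9 rose by 1.33 in siControl cells over the 2 days.

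Few markers of other cells passed between the siRNAs. Of 8 genes of Schwann cells and neurons, 3 were tested (Sox10, Chat and Tubb3), while Rbfox3 was well above background on no array and S100b and Slc18a3 on at most 2 arrays of any group. Tubb3, a tubulin of neurons, differed by -1.17 at day 0, and with it the summed signal of the list, at 14.1 to 17.0 in siControl and 6.40 to 7.63 in siBach1 cells. Of the 5 fibroblast genes, which rose with the members between the days, Col1a2 was 0.29 higher at day 0 and Pdgfra 0.51 higher at day 2. No adipocyte gene of 3 tested passed in either silencing comparison by limma, and 0 had an unadjusted p under 0.05. Of 3 osteoblast genes tested, Bglap was 1.90 higher with siBach1 at day 2, where it was well above background on 2 of the 3 siControl arrays.

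Genes with the most similar course over the 12 arrays were found for each main probe as the smallest root mean square difference between profiles centred on their own mean, in log2 units. Chrng lay closest to the sarcomere genes Myl1 (0.123), Myom2 (0.135) and Myl3 (0.177). Dok7 had Pdlim4 (0.2) and Slc11a1 (0.201) among its 3 closest, and Chrnd had H19 (0.122). Lrp4 had Pmaip1 (0.12) and Mmp15 (0.122) nearest, and Chrna1 had Paqr7 (0.0632). Rapsn was nearest to Atp6v0a1 (0.0605), Agrn to Srpk2 (0.0489), Musk to Smim13 (0.107), Chrnb1 to 4932416H05Rik (0.1) and Chrne to Ina (0.115). These are descriptions over 12 shared arrays.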

How the data were processed

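Cy3-labelled RNA of 12 C2C12 samples was hybridized by the authors to Agilent SurePrint G3 Mouse arrays and analysed in GeneSpring with Student's t-test. The deposited scanner files hold each spot's processed intensity after background subtraction (Feature Extraction 10.7.3.1 in the file headers, 9.1 in the submitters' processing notes). The deposited table holds the authors' normalized log2 values. These and the values used here were each centred on the probe's median over the 12 arrays. After that centring they differed by at most 0.0045 on probes without a missing value. No array is a copy of another. Control spots and the 76 to 110 outlier spots per array were left out, repeated spots were averaged, and log2 of the processed signal minus the array's 75th percentile was used. A probe had to exceed the scanner's background rule on every array of 1 or more conditions, which 29664 of 56605 did, and these entered a single limma 3.58.1 fit (R 4.3.3) of the 4 conditions, with Benjamini-Hochberg adjustment over all of them. The fit was tested on simulated data. A gene's main probe is its tested probe with the highest mean.

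Replicates 1 and 2 were on slide 1 and replicate 3 on slide 2. Residuals of same-numbered arrays correlated in all 18 pairs (r from 0.142 to 0.595, above the limit of 0.1). The numbers thus pair the samples, and pairing and place on the slide cannot be told apart. The main fit held no block because the methods name none, so its SEs and p-values do not use the pairing. A block for replicate was run as an alternative. Of the 19 member probes, 16 had their accession in the reference (GRCm38.p6). The array design names mm9, so no probe coordinates are given. All probes of the 10 genes are named, and of each further list at most the 3 largest rises and falls among genes that passed. Some genes the rule names are not reported here. Members, lists and alternatives were chosen with earlier results of these data known. The alternatives were quantile normalization, normexp background with an offset of 50, the authors' values, 2 other filters, a block for replicate or for slide, a fit on the compared arrays alone, a robust prior, the methods' t-test, a 2-fold limit, 1 value per gene, and each array left out. The number of arrays limits the precision.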

Additional observations from a re-analysis of the deposited data

Results flagged for a closer look

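The effect of silencing differed between the 2 days, by the limma test of that difference, on 5 of the 17 tested probes, of 3 genes. Each had a lower effect at day 2, where 2.2% of all tested probes passed in that direction and 2.39% in the other. The day 2 effect minus the day 0 effect on the log2 scale was -1.38, -0.99 and -0.82 for the Dok7 probes A_51_P155458, A_51_P322941 and A_55_P2741057, -0.96 for Lrp4 A_52_P635078 and -0.75 for Chrnd A_55_P2110548. On slide 1 and slide 2 alone, with 2 pairs and 1 pair of arrays per day, these values were -1.35 and -1.42, -0.88 and -1.19, -0.85 and -0.77, -0.95 and -0.97, and -0.76 and -0.72, in the same order. The probes were picked on these same arrays, so the values by slide are a description and no separate support. Dok7 and Chrnd went from a positive to a negative effect, and Lrp4 from a large to a small positive one. Lrp4 and the Dok7 probes A_51_P322941 and A_55_P2741057 each failed in 9 of the 12 fits with an array left out. With quantile normalization Chrnd and Lrp4 did not pass (limma adjusted p = 0.055 and 0.058).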

How the results depend on the processing

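Of 1904 recomputed values of single probes, 1759 kept their direction and their side of the limit, 102 no longer passed, 24 newly passed and 19 changed sign. No sign change was between 2 passing values. Of the 24, 6 came from the methods' t-test at an unadjusted p under 0.05. Counts of passing members at day 0 (11), at day 2 (5), for the days in siControl (16), for the days in siBach1 (14) and for the difference between days (5) moved as follows. With a 2-fold limit they were 1, 0, 11, 7 and 1. Without the filter on dim probes the silencing counts were 5 and 1 and that of the difference 1. Over all 56605 probes then tested, 1034 were higher and 1446 lower at day 0, 711 and 594 at day 2, and 34 and 15 for the difference. In the main fit these were 2610 and 2469, 1705 and 1858, and 708 and 653 of 29664. With only the arrays of the comparison the member counts were 7 at day 0 and 2 at day 2. Over all tested probes that fit gave 1658 higher and 2064 lower at day 0, and 1108 and 965 at day 2. The methods' t-test after Benjamini-Hochberg adjustment gave 6 member probes at day 0 and 0 at day 2, where 7 had an unadjusted p under 0.05. Over all tested probes the adjusted t-test gave 1437 higher and 1690 lower at day 0, and 471 and 626 at day 2. At an unadjusted p under 0.05, 3359 of the 29664 tested probes were higher and 3831 lower at day 2. Quantile normalization gave 3 member probes for the difference, all lower, and over all tested probes 738 higher and 405 lower. With 1 value per gene, of 10 genes, the member counts were 7, 3, 10, 9 and 2. The shares over all genes of that fit are not given here, so these counts cannot be set against them. Neither the t-test nor the fit on fewer arrays was run for the difference, which is no comparison of 2 groups and uses all 12 arrays.

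With an array left out, the counts were 6 to 11 at day 0 (6 without siControl day 0 replicate 1 or 2, 7 without siBach1 day 0 replicate 3), 2 to 6 at day 2 (2 without replicate 3 of either day 2 group, 3 without replicate 1 of either), 16 to 16 and 13 to 15 for the days, and 2 to 5 for the difference (2 without siControl day 0 replicate 1 or 2, siControl day 2 replicate 1 or 3, siBach1 day 0 replicate 3 or siBach1 day 2 replicate 2 or 3, 3 without siBach1 day 0 replicate 1 or 2). Each left-out group then had 2 arrays. The counts over all tested probes in these fits are not given here, so a fall of the members alone cannot be told from a fall of all probes. The difference of Dok7 A_51_P155458 passed in all of these fits, and so did the day 0 effect of Lrp4 A_52_P635078, Chrng and Chrnd. That of Dok7 A_51_P155458 at day 0 was lost without siControl day 0 replicate 1 (adjusted p = 0.051).

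Signs turned with quantile normalization for Chrne at day 0 (-0.037), Lrp4 A_55_P2503635 at day 2 (-0.042), Dok7 A_51_P155458 over the days in siBach1 (0.12) and Chrna1 for the difference (0.049), and with normexp for Lrp4 A_55_P2503635 at day 2 (-0.072) and Musk A_55_P2496660 for the difference (0.013). With an array left out, signs turned within -0.13 to 0.075 for Chrnb1 and -0.033 to 0.13 for Chrne at day 0, -0.045 to 0.059 for Chrna1, -0.11 to 0.13 for Musk A_55_P2130600 and -0.073 to 0.060 for Lrp4 A_55_P2503635 at day 2, and -0.015 to 0.19 for Chrnb1 and -0.11 to 0.34 for Lrp4 A_55_P2680519 for the difference. No main value of these passed. Over all tested probes the replicate block gave 4812 higher and 3353 lower at day 0, 2902 and 3429 at day 2, and 1532 and 2333 for the difference. This block moved the member counts to 12, 5, 16, 14 and 7 and changed the call of Lrp4 A_55_P2503635 at day 0, and of Lrp4 A_66_P139374 and Musk A_55_P2130600 for the difference, and no other. The cause of these changes was not tested. Signal over background left 2 of the 19 member probes untested.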
